A study of Mus musculus with 18 samples.

Results

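The 10 genes described here are the members of the fibroblast growth factor (FGF) system that were picked by symbol, with earlier results of these data known, from the 52093 symbols of the expression files. They comprised 6 ligands or ligand homologues (Fgf1, Fgf2, Fgf9, Fgf10, Fgf13 and Fgf21), 3 receptors (Fgfr1, Fgfr2 and Fgfr3) and the co-receptor β-Klotho (Klb). All 10 were found and passed the filter on low counts, a mean of at least 10 reads, in each comparison.

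FGFs are secreted proteins that bind receptor tyrosine kinases on the cell surface. Most act close to their source and need heparan sulfate to engage the receptor, whereas FGF21 circulates as a hormone and needs β-Klotho next to an FGF receptor, in adipocytes mainly FGFR1. FGF13 is a homologue that stays inside the cell, where it is known to bind sodium channels and microtubules, and it does not signal through the receptors. FGF1 is known as a gene induced by feeding in adipose tissue, and FGF10 is known for its role in the formation of white fat.

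RNA-seq had been performed on inguinal (iWAT) and epididymal (eWAT) white adipocytes and on brown adipose tissue (BAT), with 6 libraries each. The labels described the mice as wild-type C57BL/6 males aged 16 weeks, with 12 weeks of high-fat feeding (HFD). Another label field gave regular chow for all 18 libraries, against their titles and the series design, and the libraries were taken as HFD. No lean, drug-treated or genetically altered mice are part of the comparisons here. The white samples were floating mature adipocytes obtained after collagenase digestion, but BAT was frozen as whole tissue although a label calls it BAT adipocytes. A difference between BAT and the white samples therefore cannot be told apart from the difference between whole tissue and isolated cells, nor from the sequencing lane, since white libraries had been run on lanes 1 and 2 and BAT on lanes 3 and 4.

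Reads on the rows of the files totalled 26768529 to 30166441 per library in iWAT, 24655056 to 37438994 in eWAT and 27402247 to 42518483 in BAT. The 4 adipocyte markers (Adipoq, Plin1, Lep and Cidec) summed to 2605 to 3840 RPKM (reads scaled by transcript length and by a total for each library) in iWAT, 517 to 1812 in eWAT and 629 to 824 in BAT. The 4 brown adipocyte markers, with Ucp1 the highest in BAT, summed to 1995 to 2631 in BAT and to at most 12.1 in the white samples. The 4 macrophage markers detected under their listed symbols summed to 147 to 278 in iWAT, 718 to 1083 in eWAT and 4.49 to 8.37 in BAT. Endothelial markers summed to 104 to 296 in iWAT, 35.0 to 75.0 in eWAT and 70.8 to 105 in BAT. eWAT libraries 1 and 3 stood apart from the other eWAT libraries, with adipocyte sums of 703 and 517 against 1303 to 1812 and macrophage sums of 1029 and 1083 against 718 to 855. In whole samples, fewer cells of a type and less RNA per cell cannot be told apart.

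The promoters of Fgf21, Klb and Fgf10 are shown because Fgf21 and Klb encode the hormone and the co-receptor of one signal, and Fgf10 separated the 3 tissues without overlap. RefSeq promoters of GRCm38.p6 (250 bases before to 50 after the start) were matched by symbol for 8 of the 10 genes. Fgf21 lies at chr7:45615441-45615740 on the minus strand, Klb at chr5:65348161-65348460 and Fgf10 at chr13:118714449-118714748, both on the plus strand. Capitals mark exact matches on either strand to the TATA box (TATAAA), the GC box (GGGCGG), the E-box (CACGTG) and a composite element of C/EBP and ATF factors (TTGCATCA).
Fgf21: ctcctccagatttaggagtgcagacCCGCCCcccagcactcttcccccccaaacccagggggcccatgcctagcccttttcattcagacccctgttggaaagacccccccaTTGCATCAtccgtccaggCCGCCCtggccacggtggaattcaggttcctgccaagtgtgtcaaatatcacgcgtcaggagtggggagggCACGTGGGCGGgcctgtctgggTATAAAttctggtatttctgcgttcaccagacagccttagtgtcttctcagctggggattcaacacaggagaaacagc
Klb: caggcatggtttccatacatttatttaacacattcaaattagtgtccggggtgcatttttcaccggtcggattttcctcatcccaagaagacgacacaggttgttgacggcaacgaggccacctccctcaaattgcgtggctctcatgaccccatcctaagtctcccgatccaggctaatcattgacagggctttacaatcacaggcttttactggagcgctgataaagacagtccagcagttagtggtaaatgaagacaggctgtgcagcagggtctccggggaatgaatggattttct
Fgf10: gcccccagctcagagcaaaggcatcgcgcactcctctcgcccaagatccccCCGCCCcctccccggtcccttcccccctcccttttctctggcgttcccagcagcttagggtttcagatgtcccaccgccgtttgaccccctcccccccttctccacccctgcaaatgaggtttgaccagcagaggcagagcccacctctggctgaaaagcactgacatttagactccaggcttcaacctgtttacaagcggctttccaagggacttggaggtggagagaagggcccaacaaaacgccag

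The Fgf21 promoter held all 4 motifs, namely a TATA box that began 28 bases before the start, an E-box at -50, a composite element at -139 and GC boxes at -225, -121 and -45. The E-box and the nearest GC box shared their last and first base. The Fgf10 promoter held 1 GC box, at -199, and the Klb window held none of these letters. Among all 32851 promoters of the same length, 13.6% held the TATA box, 35.7% the GC box, 7.15% the E-box and 0.895% the composite element. A match of this kind is a description of letters and not a measured binding site.

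On the per-length scale of RPKM, at which genes can be compared within a library, Fgf13, Fgf10, Fgf1, Fgfr1 and Klb were the most abundant members in iWAT, with means of 20.2, 15.1, 13.9, 13.4 and 10.6 RPKM. In eWAT the order was Fgfr1 (14.2), Fgf13 (10.8), Fgf1 (8.82), Fgf10 (5.35) and Klb (3.38). In BAT it was Fgf1 (10.1), Fgfr1 (4.56), Klb (3.76) and Fgf21 (1.28), and Fgf10 and Fgf13 were below 1 RPKM. A mean of 1 RPKM or more was reached by 7 of the 10 genes in iWAT, by 5 in eWAT and by 4 in BAT.

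**Figure D1:**
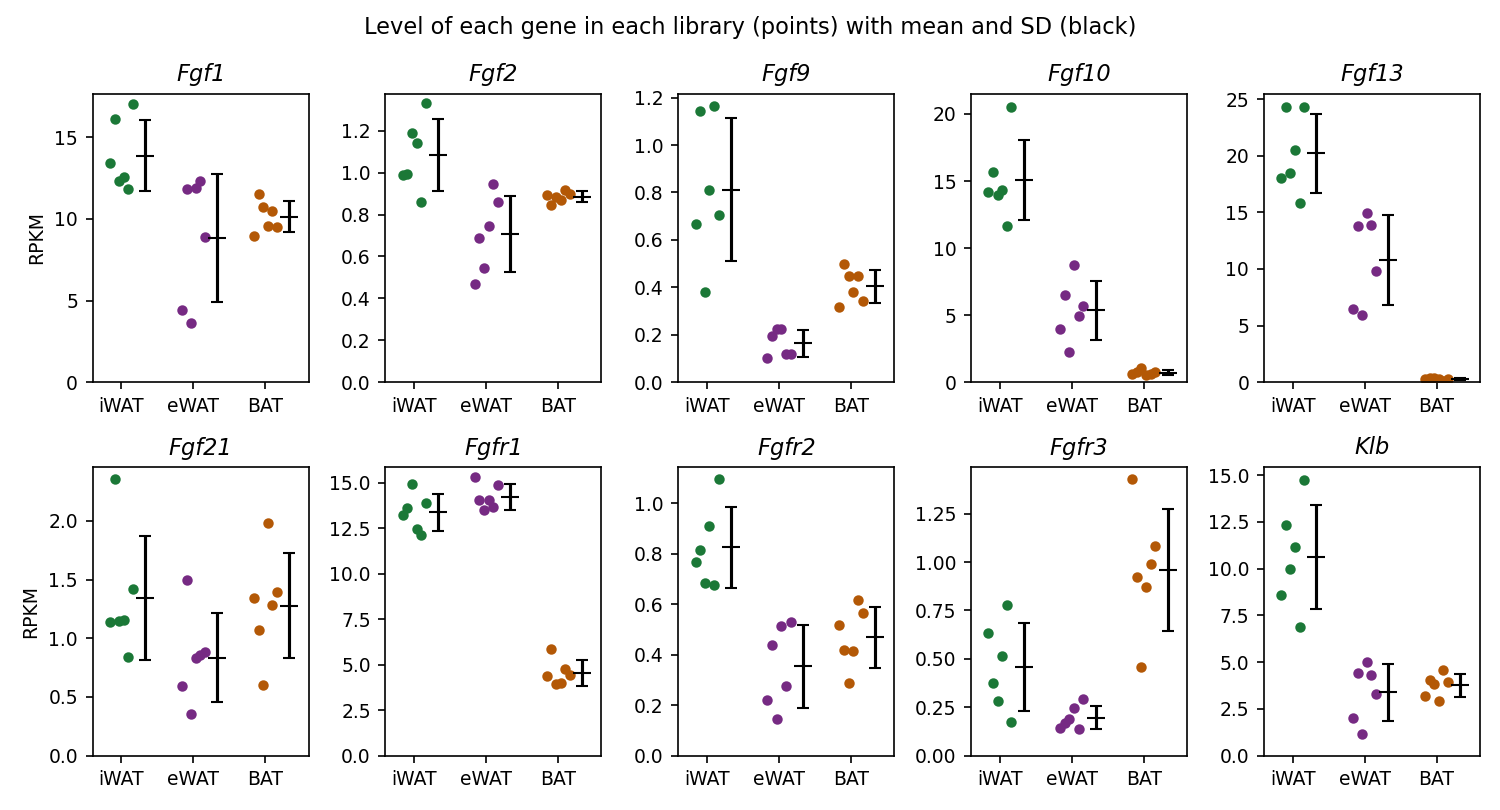
RPKM (vertical axis, linear, a scale of its own for each gene) of the 10 genes in each of 6 libraries of iWAT, eWAT and BAT (points), with the mean and SD in black. On this scale, before TMM, Fgf10 and Fgf13 separated the 3 tissues, with BAT at or below 1.03 and 0.387 RPKM, while Fgfr1 in iWAT and eWAT overlapped at 12.1 to 15.3 RPKM.

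Fgf10, a ligand of FGFR2 made by mesenchymal cells, was graded over the tissues. Its RPKM was 11.7 in the lowest, 14.2 in the median and 20.5 in the highest iWAT library, 2.27, 5.31 and 8.76 in eWAT, and 0.500, 0.687 and 1.03 in BAT. No library of a tissue overlapped with those of another, before or after TMM scaling. In edgeR's quasi-likelihood test with Benjamini-Hochberg adjustment over all genes, Fgf10 was higher in iWAT than in eWAT by 1.50 on the log2 scale (SE 0.26, adjusted p = 0.00022), or 2.83-fold. It was 14.0-fold higher in iWAT than in BAT (log2 fold change 3.80, SE 0.18, adjusted p = 3.7e-11) and 4.99-fold higher in eWAT than in BAT (2.32, SE 0.27, adjusted p = 9.7e-07).

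Fgf13 had the largest fold differences of the 10 genes against BAT. Its RPKM in the lowest, median and highest library was 15.8, 19.5 and 24.3 in iWAT, 5.95, 11.8 and 14.9 in eWAT, and 0.0913, 0.275 and 0.387 in BAT, where 13 to 60 reads per library stood behind it. The 3 tissues did not overlap on this scale, but after TMM scaling the lowest iWAT library (12.0) lay just below the highest eWAT library (12.2), while BAT stayed apart. Fgf13 was 1.88-fold higher in iWAT than in eWAT (log2 fold change 0.91, SE 0.24, edgeR adjusted p = 0.0037), 49.1-fold higher in iWAT than in BAT (5.62, SE 0.24, adjusted p = 1.1e-11) and 26.4-fold higher in eWAT than in BAT (4.72, SE 0.32, adjusted p = 1.8e-09). The ratio of Fgf13 to Fgf1 within a library was 1.46 ± 0.111 (SD, n = 6) in iWAT and 1.30 ± 0.220 in eWAT, ranges that overlapped, and 0.0271 ± 0.00925 in BAT.

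Fgf1, a ligand that binds all FGF receptors, was an abundant member in each tissue. In iWAT its lowest, median and highest RPKM was 11.8, 13.0 and 17.01, in eWAT 3.60, 10.4 and 12.3, and in BAT 8.93, 10.0 and 11.5. The 2 lowest eWAT values came from libraries 1 and 3, and iWAT and eWAT overlapped. iWAT was above BAT in every library on this scale but overlapped with it after TMM scaling, whereas eWAT overlapped with BAT on this scale and was below it after scaling. The iWAT to eWAT difference did not pass the threshold (edgeR log2 fold change 0.66 ± 0.28 SE, adjusted p = 0.052). The alternatives of the closing section include a fold threshold, which asks a different question and is left out here. Over the others, leaving out 1 library aside, its adjusted p ran from 0.022 to 0.076. The largest was without eWAT libraries 1 and 3, where the log2 fold change was 0.30. With 1 library left out, the edgeR adjusted p ran from 0.033 to 0.10. Against BAT the sign depended on the scaling between libraries: Fgf1 was 0.15 lower on the log2 scale in iWAT than in BAT after TMM normalization (edgeR adjusted p = 0.23) but 0.70 higher when only the total count was used (adjusted p = 1.4e-05). In eWAT it was lower than in BAT by 0.80 with TMM (adjusted p = 0.010), a difference that became 0.12 in the other direction without it (adjusted p = 0.66).

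Fgf2 and Fgf9, ligands that act near their source, were low. Fgf2 had a mean of 1.08 ± 0.170 RPKM (SD, n = 6) in iWAT, 0.708 ± 0.182 in eWAT and 0.885 ± 0.0256 in BAT. The BAT values, from 0.844 to 0.919, lay inside the eWAT range of 0.468 to 0.946, but after TMM scaling all BAT libraries were above all white ones. Fgf2 was 1.55-fold higher in iWAT than in eWAT (log2 fold change 0.63, SE 0.18, edgeR adjusted p = 0.0070). It was lower in eWAT than in BAT by 0.92 (adjusted p = 6.2e-05), which fell to less than 0.01 without TMM. The iWAT to BAT difference of -0.31 (adjusted p = 0.035) was lost when any 1 of 7 of the 12 libraries was left out and turned to 0.54 without TMM (adjusted p = 0.00055), so no direction is given for it. Fgf2 counts are uncertain, because its row shares 329 exonic bases with Bbs12, Cetn4 and Nudt6 and the files do not state whether strand was used.

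Fgf9 had 0.382, 0.756 and 1.164 RPKM in the lowest, median and highest iWAT library, 0.102, 0.158 and 0.225 in eWAT, and 0.318, 0.413 and 0.497 in BAT. All eWAT libraries lay below all libraries of the other 2 tissues. Fgf9 was 5.01-fold higher in iWAT than in eWAT (edgeR log2 fold change 2.33, SE 0.29, adjusted p = 1.5e-05) and 3.74-fold higher in BAT than in eWAT (eWAT against BAT -1.90, SE 0.21, adjusted p = 6.2e-07). Its iWAT to BAT difference was 0.39 (SE 0.22, adjusted p = 0.12), with overlapping ranges.

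Fgf21, the hormone, was near 1 RPKM. Its RPKM was 0.839 to 2.36 in iWAT (median 1.15), 0.355 to 1.50 in eWAT (median 0.845) and 0.605 to 1.98 in BAT (median 1.31). The ranges of the 3 tissues overlapped, and 10 to 61 reads per library stood behind them. The iWAT to eWAT difference (log2 fold change 0.69, 95% interval -0.01 to 1.39, edgeR adjusted p = 0.072) did not pass the threshold. The iWAT to BAT difference was -0.53 (adjusted p = 0.11) and had the opposite sign, 0.32, without TMM (adjusted p = 0.26). Fgf21 was 2.30-fold higher in BAT than in eWAT (eWAT against BAT -1.20, SE 0.32, adjusted p = 0.0028), a call lost without TMM (-0.28, adjusted p = 0.38).

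Fgfr1, the main FGF receptor of adipocytes, had the smallest fold change of the 10 genes between the white depots. Its lowest, median and highest RPKM was 12.1, 13.4 and 14.9 in iWAT, 13.5, 14.1 and 15.3 in eWAT and 3.92, 4.41 and 5.87 in BAT. iWAT and eWAT overlapped, and BAT lay below both. The iWAT to eWAT log2 fold change was -0.08 with a 95% interval of -0.23 to 0.07 (edgeR adjusted p = 0.33), although it reached -0.16 and passed the threshold without TMM (adjusted p = 0.038). Fgfr1 was 1.93-fold higher in iWAT than in BAT (0.95, SE 0.09, adjusted p = 1.0e-07) and 2.08-fold higher in eWAT than in BAT (1.06, SE 0.08, adjusted p = 7.7e-09).

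Fgfr2, whose epithelial form is the receptor of FGF7 and FGF10, was low. It had 0.825 ± 0.159 RPKM (SD, n = 6) in iWAT, 0.353 ± 0.163 in eWAT and 0.470 ± 0.121 in BAT. All iWAT libraries, from 0.674 RPKM up, were above all others, the highest of which was at 0.617. After TMM scaling iWAT overlapped with BAT, and eWAT was below BAT. Fgfr2 was 2.35-fold higher in iWAT than in eWAT (log2 fold change 1.24, SE 0.28, edgeR adjusted p = 0.0016). It was 2.01-fold higher in BAT than in eWAT (edgeR adjusted p = 0.0034), a call lost without TMM (-0.10, adjusted p = 0.73). The iWAT to BAT difference was 0.21 (adjusted p = 0.27) with TMM and 1.05 (adjusted p = 2.7e-05) without it.

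Fgfr3, a receptor of several ligands including FGF9, was the receptor with its highest level in BAT. Its lowest, median and highest RPKM was 0.172, 0.447 and 0.777 in iWAT, 0.137, 0.181 and 0.294 in eWAT, and 0.456, 0.956 and 1.43 in BAT. BAT was above eWAT in every library and overlapped with iWAT, which it no longer did after TMM scaling. Fgfr3 was 3.21-fold higher in BAT than in iWAT (iWAT against BAT -1.68, SE 0.29, edgeR adjusted p = 8.2e-05), 7.33-fold higher in BAT than in eWAT (eWAT against BAT -2.87, SE 0.24, adjusted p = 2.3e-08) and 2.33-fold higher in iWAT than in eWAT (1.22, SE 0.32, adjusted p = 0.0040). Both BAT directions held under each scaling tried.

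Klb, which gives FGF21 access to its receptor, was an iWAT-high gene. The 6 iWAT libraries had 6.89, 8.57, 9.98, 11.2, 12.3 and 14.8 RPKM. The eWAT libraries had 1.18 (library 3), 2.02 (library 1), 3.31, 4.33, 4.41 and 5.03, and the BAT libraries 2.93 to 4.56 with a median of 3.90. All iWAT libraries were above all others on this scale, and eWAT and BAT overlapped. After TMM scaling iWAT (5.25 to 12.5) overlapped with BAT (4.68 to 6.47), and eWAT (at most 4.11) lay below both. Klb was 3.18-fold higher in iWAT than in eWAT (edgeR log2 fold change 1.67, SE 0.31, adjusted p = 0.00040) and 1.87-fold higher in iWAT than in BAT (0.91, SE 0.17, adjusted p = 0.00014). It was lower in eWAT than in BAT by 0.74 with TMM (adjusted p = 0.016), which turned to 0.16 in the other direction without it (adjusted p = 0.57).

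**Figure D2:**
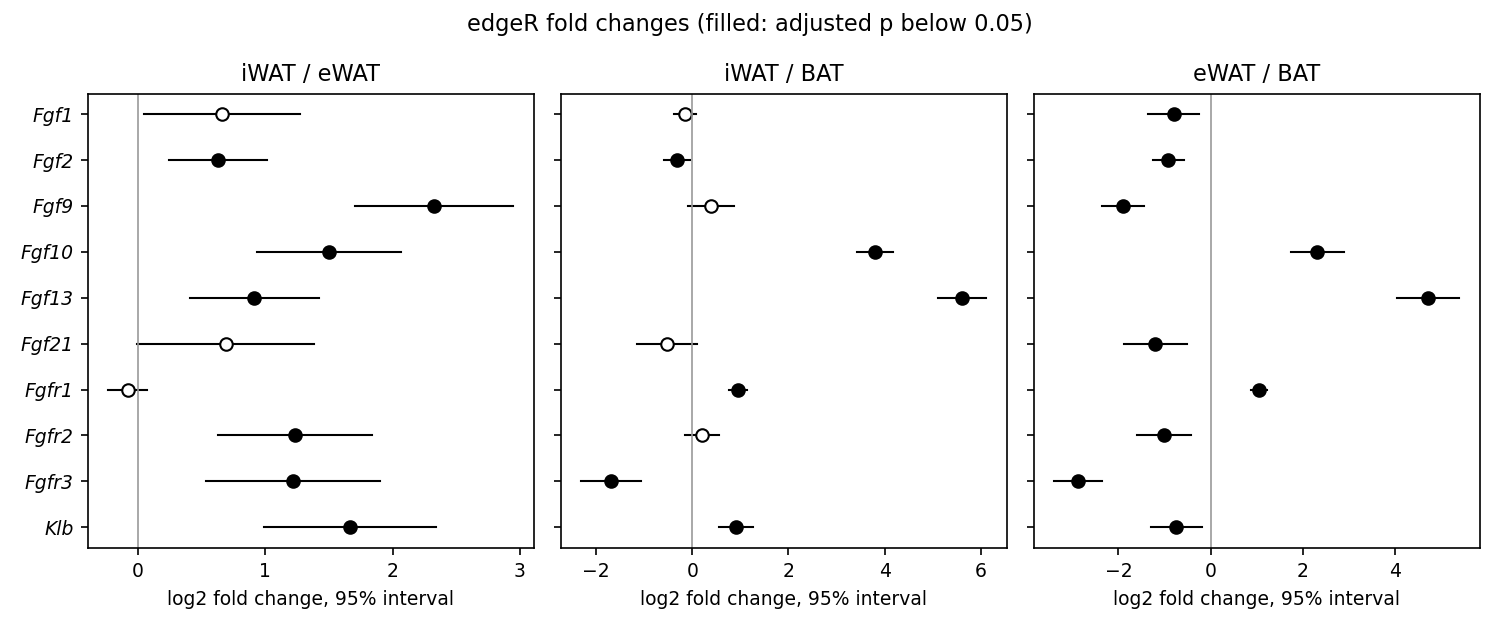
log2 fold changes (horizontal axis) of the 10 genes in the 3 comparisons, with 95% intervals from edgeR. Filled points passed an adjusted p of 0.05, and values right of 0 are higher in the tissue named first. In iWAT against eWAT, 7 filled points lie right of 0 and none left. In eWAT against BAT all 10 are filled, 3 right of 0 and 7 left, of which Fgf1 and Klb change side when only the total count is used for scaling.

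Over the 10 genes, 7 passed the threshold between iWAT and eWAT, all higher in iWAT, where 68.6% of all 19623 genes tested passed (34.1% higher in iWAT and 34.5% higher in eWAT). The median log2 fold change of the 10 was 1.07, against 0.00 over all genes tested. Between iWAT and BAT, 6 passed, 4 higher in iWAT (Fgf10, Fgf13, Fgfr1 and Klb) and 2 higher in BAT (Fgf2 and Fgfr3). The Fgf2 call was lost or reversed under several settings, so no direction is given for it. Of all 19745 genes, 75.3% passed (38.1% higher in iWAT and 37.2% higher in BAT). The median log2 fold changes were 0.30 for the members and 0.01 for all genes. Between eWAT and BAT all 10 passed, 3 higher in eWAT (Fgf10, Fgf13 and Fgfr1) and 7 higher in BAT, against 82.5% of all 20076 genes (41.1% higher in eWAT and 41.4% higher in BAT), with medians of -0.86 and -0.02. Counted over both directions together, members thus passed about as often as genes in general. By direction the split was uneven. Between iWAT and eWAT, 7 of 10 were higher in iWAT, against 34.1% of all genes. Between eWAT and BAT, 7 of 10 were higher in BAT, against 41.4%. The comparisons share their libraries, so the 3 counts are not separate evidence. The members were picked with earlier results of these data known, so their shares and their split cannot serve as a test against all genes. The adipocyte markers Adipoq, Plin1, Lep and Cidec also each passed the threshold as higher in iWAT than in eWAT. The part of these marker levels in the split was not tested.

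BAT libraries had TMM factors of 0.536 to 0.725, against 1.14 to 1.31 in the white samples when computed over all 18 libraries, so the scaling sets much of the split against BAT. Without TMM, the median over all genes tested moved from 0.01 to 0.87 in iWAT against BAT and from -0.02 to 0.89 in eWAT against BAT. In iWAT against BAT, 9 members then passed, 8 higher in iWAT and 1 in BAT, and over all genes the split went from 7528 higher in iWAT and 7336 in BAT to 13703 and 3054. In eWAT against BAT, 5 members then passed, 3 higher in eWAT and 2 in BAT, and the split over all genes went from 8243 and 8318 to 12965 and 4061. The directions of Fgf10, Fgf13, Fgfr1 and Fgfr3 against BAT held under each scaling, as did that of Fgf9 in eWAT against BAT.

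The white depots could be compared within lanes, with 2 iWAT and 4 eWAT libraries on lane 1 and 4 iWAT and 2 eWAT libraries on lane 2. The log2 ratio of the mean TMM-scaled RPKM of Klb was 1.35 on lane 1 and 2.19 on lane 2. For Fgf10 it was 1.36 and 1.79, for Fgf13 0.63 and 1.48, for Fgf9 1.50 and 3.19, for Fgfr2 1.12 and 1.32, for Fgfr3 1.32 and 1.14, and for Fgf2 0.62 and 0.80. Each of these 7 genes was thus higher in iWAT on both lanes. Of the eWAT libraries that stood apart, library 3 was 1 of 4 on lane 1 and library 1 was 1 of 2 on lane 2. The lane 2 ratios therefore rest more on such a library. The ratio of Fgfr1 was 0.08 on lane 1 and -0.11 on lane 2, that of Fgf1 0.41 and 1.21, and that of Fgf21 0.41 and 1.09.

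Within a library, Fgfr1 made up most of the RNA of the kinase receptors Fgfr1 to Fgfr4. Fgfrl1, a receptor without a kinase domain that is described below, is not counted here. Its share of the summed RPKM of Fgfr1 to Fgfr4 was 91.0 ± 1.78% (SD, n = 6) in iWAT, 96.3 ± 1.35% in eWAT and 76.2 ± 5.52% in BAT. The ranges, 89.2 to 93.9%, 94.7 to 97.7% and 68.9 to 83.8%, did not overlap. Fgfr3 made up 3.20 ± 1.71% in iWAT, 1.33 ± 0.380% in eWAT and 15.8 ± 4.37% in BAT. The summed level of Fgfr1 to Fgfr4 was 14.7 ± 0.833 RPKM in iWAT, 14.8 ± 0.788 in eWAT and 6.00 ± 0.895 in BAT. The white depots thus had like totals of these receptors, with Fgfrl1 left out.

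The ratio of Klb to Fgfr1, co-receptor to receptor, needs no scaling between libraries. It was 0.792 ± 0.191 (SD, n = 6) in iWAT, 0.239 ± 0.110 in eWAT and 0.831 ± 0.128 in BAT. The eWAT values, 0.0878 to 0.358, lay below all others, while iWAT (0.569 to 1.06) and BAT (0.688 to 0.984) overlapped. The 2 lowest, 0.0878 and 0.132, were eWAT libraries 3 and 1, and the other eWAT libraries were at 0.222 to 0.358. Divided by Adipoq, the adipocyte marker that itself was at 1127, 387 and 221 RPKM in iWAT, eWAT and BAT, the picture for the white depots was different. Klb was then at 0.930 ± 0.124 RPKM per 100 RPKM of Adipoq in iWAT and 0.879 ± 0.0911 in eWAT, ranges that overlapped, and at 1.70 ± 0.235 in BAT. Fgf10 per 100 Adipoq was also alike in the white depots (1.33 ± 0.136 and 1.46 ± 0.319), whereas Fgf1 (1.24 ± 0.122 and 2.30 ± 0.246), Fgf13 (1.79 ± 0.106 and 2.98 ± 0.582) and Fgfr1 (1.20 ± 0.166 and 4.74 ± 2.85) were higher in eWAT per Adipoq in every library. In eWAT libraries 1 and 3, Fgfr1 per 100 Adipoq was 7.67 and 8.99, against 2.43 to 3.76 in the other eWAT libraries. All ratios here were chosen after values were seen and are descriptions without a test.

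**Figure D3:**
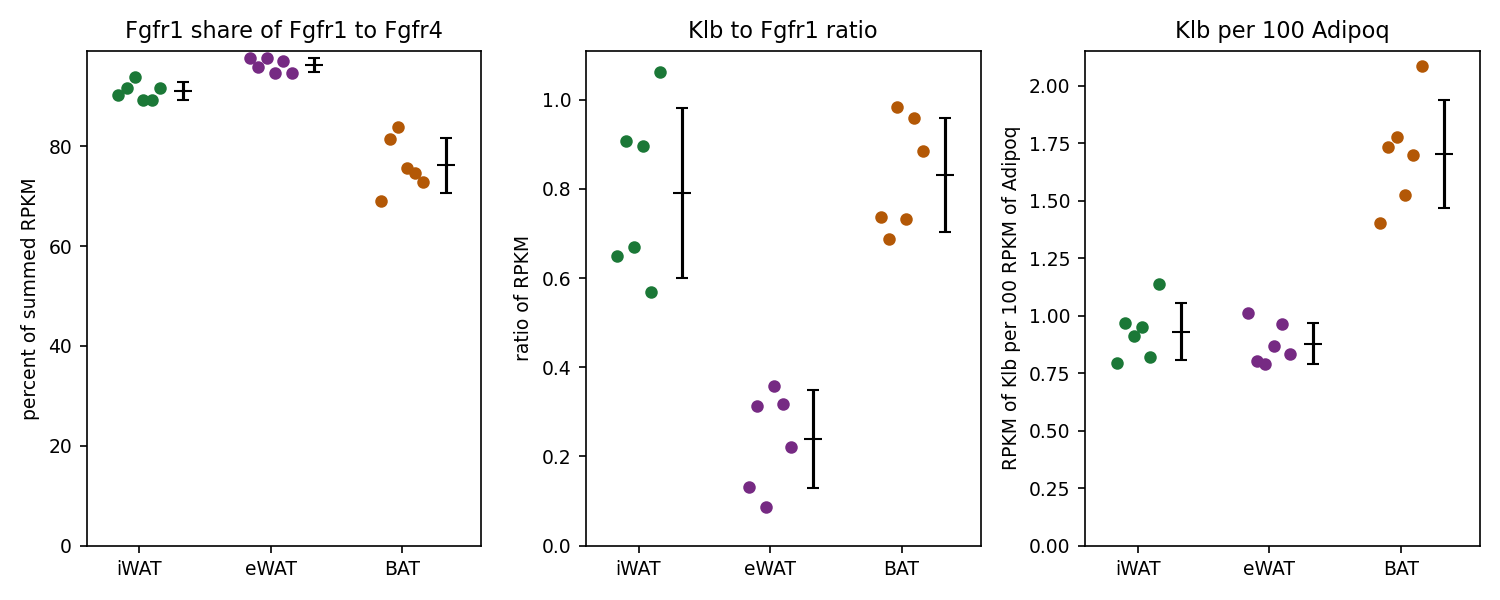
Fgfr1 as percent of the summed RPKM of Fgfr1 to Fgfr4, the ratio of Klb to Fgfr1 RPKM, and Klb RPKM per 100 RPKM of Adipoq, for each library (points) with mean and SD in black. eWAT stood apart in the ratio of Klb to Fgfr1, at 0.0878 to 0.358, but overlapped with iWAT in Klb per Adipoq.

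eWAT libraries 1 and 3, with the fewest adipocyte and the most macrophage marker reads, were also the 2 lowest eWAT libraries for Fgf1, Fgf2, Fgf10, Fgf13, Fgf21, Fgfr2 and Klb. For Fgfr1, library 1 was the highest and library 3 the lowest. Without both libraries, an alternative chosen after seeing the data, 7 members again passed between iWAT and eWAT, and the log2 fold change was 1.32 for Klb, 1.22 for Fgf10, 0.62 for Fgf13, 2.29 for Fgf9, 0.90 for Fgfr2, 1.09 for Fgfr3 and 0.42 for Fgf2, with edgeR adjusted p-values from 9.3e-05 to 0.032. Against BAT all 10 again passed, with eWAT against BAT at -0.39 for Klb and -0.43 for Fgf1. Over all genes, 11763 of 19542 passed between iWAT and eWAT and 16160 of 20002 between eWAT and BAT without both libraries. The part of the marker levels in the difference between depots was not tested.

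Levels were also compared with marker sums among the libraries of 1 tissue. Over 50 relations of a member with the adipocyte or endothelial sum (log2 scale, 6 libraries, two-sided exact permutation tests), computed after values were seen, the lowest adjusted p was 0.046. Fgf13 and Fgf21 in iWAT had the same library order as the adipocyte sum. For Fgf13, Pearson's r was 0.954 (exact permutation p = 0.0014, the smallest that 6 libraries allow, adjusted p = 0.069) and Spearman's rho 1 (p = 0.0028, adjusted p = 0.046), and r was 0.989 without the 2 libraries farthest from the median sum. For Fgf21, r was 0.880 (exact permutation p = 0.035, adjusted p = 0.21) and rho 1 (p = 0.0028, adjusted p = 0.046), with r at 0.882 without those 2. Klb in iWAT had an r of 0.928 (exact permutation p = 0.0097, adjusted p = 0.12) and a rho of 0.943 (p = 0.017, adjusted p = 0.12), with r at 0.994 without those 2. No correlation with the adipocyte sum is given in eWAT, where libraries 1 and 3 stood apart from the other 4.

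In iWAT, Fgfr3 was ordered like the markers of vessel and stromal cells. Its library order was that of the endothelial sum of Cdh5, Pecam1, Kdr and Tie1, from 0.172 RPKM at a sum of 104 to 0.777 RPKM at a sum of 296. The sums of mural markers (62.3 to 206) and of progenitor and fibroblast markers (34.2 to 69.7) had the same library order in iWAT. The B cell and Schwann cell sums were likewise lowest in library 16 and highest in libraries 1 and 5. These cell types therefore cannot be told apart by library order. With the adipocyte sum in iWAT, Pearson's r of Fgfr3 was -0.681 (exact permutation p = 0.13, adjusted p = 0.38). With the endothelial sum, Pearson's r was 0.970 (exact permutation p = 0.0028, adjusted p = 0.069), Spearman's rho 1 (p = 0.0028, adjusted p = 0.046) and r without the 2 farthest libraries 0.973. In BAT r was 0.844 (exact permutation p = 0.0042, adjusted p = 0.069), rho 0.943 (p = 0.017, adjusted p = 0.12) and r without the 2 farthest 0.735. In eWAT r was 0.803 (exact permutation p = 0.072, adjusted p = 0.30), rho 0.771 (p = 0.10, adjusted p = 0.34) and r without the 2 farthest 0.708. At a like endothelial sum, BAT libraries had more Fgfr3 than white ones, by a varying margin. The highest BAT value, 1.43 RPKM at 102 in library 1, compares with the lowest iWAT value, 0.172 RPKM at 104 in library 16. A closer pair was 0.456 RPKM at 70.8 in BAT library 5 against 0.246 RPKM at 75.0 in eWAT library 4. Both quantities in a relation share the library total, lanes held at most 4 of these libraries each in the white depots and in BAT, too few for a value within lanes, and the source of the RNA was not tested.

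**Figure D4:**
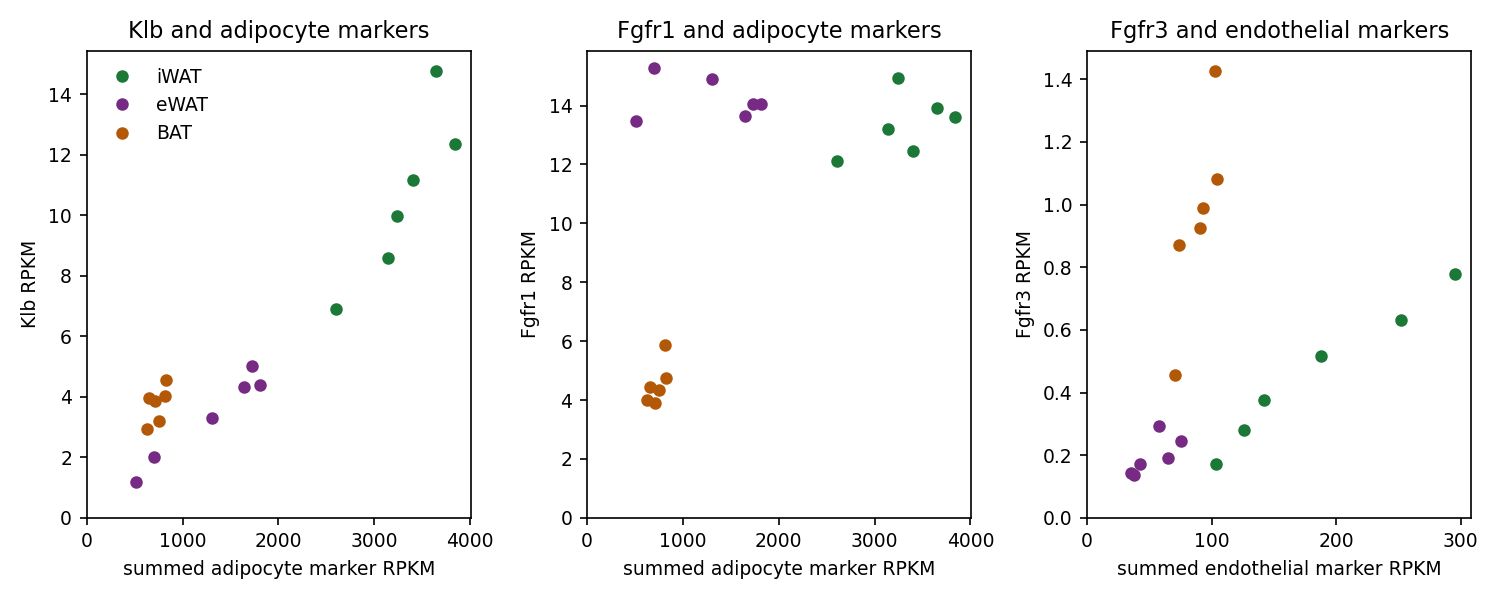
RPKM of Klb and Fgfr1 against the summed RPKM of 4 adipocyte markers, and of Fgfr3 against that of 4 endothelial markers, 1 point per library, colour by tissue. Klb was lowest in the 2 eWAT libraries with adipocyte sums of 517 and 703, Fgfr1 was at 13.5 and 15.3 RPKM in the same libraries, and Fgfr3 in iWAT went from 0.172 to 0.777 RPKM as the endothelial sum went from 104 to 296.

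Of the other genes of FGF signalling, a list of 64 fixed with earlier results of these data known, 63 were in the files. Between iWAT and eWAT, 31 of 46 tested passed, 19 higher in iWAT and 12 higher in eWAT, with a median log2 fold change of 0.11, where 68.6% of all genes passed. Between iWAT and BAT, 33 of 47 passed, 26 higher in iWAT and 7 in BAT (39 and 3 without TMM), with a median of 0.61, where 75.3% of all genes passed. Between eWAT and BAT, 32 of 46 passed, 20 higher in eWAT and 12 in BAT (35 and 7 without TMM), with a median of 0.16, where 82.5% of all genes passed. The largest changes were in Flrt2 (3.47-fold), which binds FGF receptors, and Sdc1 (3.04-fold), a heparan sulfate proteoglycan, both higher in eWAT than in iWAT, and in Spry1 (2.87-fold), a feedback inhibitor, higher in iWAT. Against BAT they were in Dusp5, a phosphatase of ERK, 42.3-fold higher in iWAT and 108-fold higher in eWAT, and Sdc1, 23.6-fold and 73.3-fold higher. Also among them were Flrt3, 14.8-fold higher in iWAT, and Fgf14, an intracellular homologue like Fgf13, 32.4-fold higher in BAT than in eWAT. Few reads per library stood behind Fgf14 in eWAT (1 to 4), Flrt3 in BAT (4 to 17) and Dusp5 in BAT (5 to 47). The size of these folds is therefore uncertain.

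Among the other ligands or ligand homologues, 4 of 16 could be tested between iWAT and eWAT. Of these 2 passed, Fgf11 and Fgf12, both higher in iWAT, where 34.1% of all genes passed in that direction. Fgf11 and Fgf12 are homologues that stay inside the cell, like Fgf13 and Fgf14, so neither call is of a secreted ligand. Between iWAT and BAT 4 of 5 passed, 1 higher in iWAT (Fgf12) and 3 in BAT (Fgf11, Fgf14 and Fgf18). Between eWAT and BAT 3 of 4 passed, Fgf11, Fgf14 and Fgf18, all 3 higher in BAT. In these comparisons 37.2% and 41.4% of all genes were higher in BAT. The other receptors and co-receptors differed widely in level. Fgfr4, the liver receptor, had at most 7 reads per library and Kl, the co-receptor of FGF23, at most 3. Fgfrl1, a receptor without a kinase domain, had a higher mean than Fgfr1 in each tissue. It had 54.5 ± 7.63 RPKM (SD, n = 6) in iWAT, 20.4 ± 7.79 in eWAT and 23.4 ± 3.81 in BAT. Its lowest eWAT library, at 9.93 RPKM, was below the lowest Fgfr1 value in eWAT, 13.5 RPKM. Fgfrl1 was 2.69-fold higher in iWAT than in eWAT (edgeR adjusted p = 0.00021) and 1.53-fold higher in iWAT than in BAT (adjusted p = 0.00037). With TMM, Fgfrl1 was lower in eWAT than in BAT (log2 fold change -0.79, edgeR adjusted p = 0.0044), so its directions were those of Klb. Lctl, a relative of Klb, had 16.3 ± 2.12, 22.0 ± 9.99 and 13.1 ± 2.57 RPKM and passed the threshold in none of the 3 comparisons.

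Of the feedback inhibitors, which FGF and other receptor kinases induce, 9 of 10 passed between the white depots, 7 between iWAT and BAT and 4 between eWAT and BAT, beside 68.6%, 75.3% and 82.5% of all genes. Between the white depots 6 were higher in iWAT and 3 in eWAT. Apart from Spry1, the higher ones in iWAT were, named after their values were seen, Spry4 (log2 fold change 1.40), Il17rd (1.49), Dusp6 (0.65), Spry2 (0.60) and Spred2 (0.27). Those higher in eWAT were Dusp5 (-1.32), Spred1 (-1.18) and Dusp4 (-0.83). The target transcription factors Etv1 and Etv5 were at -0.91 and -0.92, both higher in eWAT (edgeR adjusted p = 0.00077 and 2.2e-06). Etv5 had 1.77 ± 0.202 RPKM in iWAT, 3.36 ± 0.421 in eWAT and 0.285 ± 0.0533 in BAT, and Etv4, below 0.1 RPKM in every library, was not tested.

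**Figure D5:**
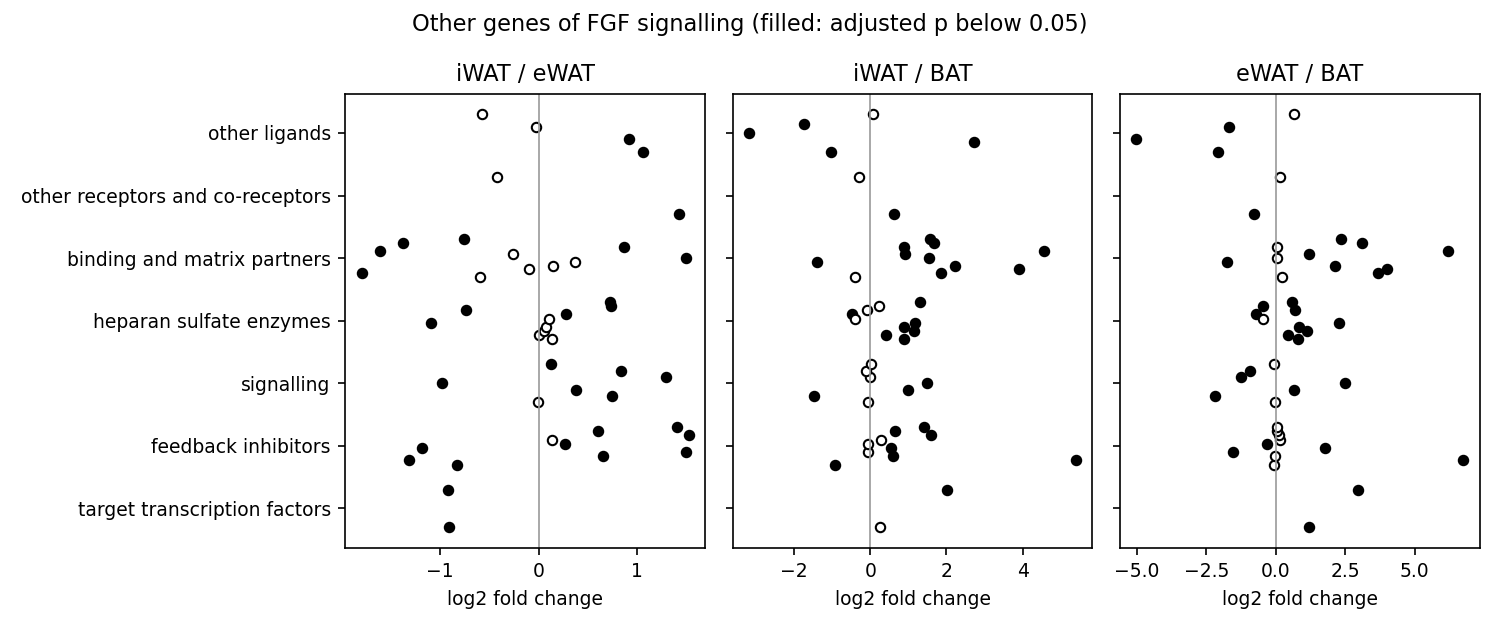
log2 fold changes (horizontal axis) of the other genes of FGF signalling by role, 1 point per gene tested, filled where the edgeR adjusted p was below 0.05. Values right of 0 are higher in the tissue named first. Feedback inhibitors fall on both sides in iWAT against eWAT, 6 filled points right and 3 left of 0.

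Genes whose levels over the 18 libraries were most like those of a member, by Pearson's r on log2 TMM-scaled RPKM over 14157 genes, were Oxtr and Cfb for Fgf13 (both r = 0.996), 9330159F19Rik and Gpr81 for Fgf10 (0.993 and 0.987) and Aldh1a7 and Acvr1c for Klb (0.984 and 0.982). For Fgf1 they were Angptl1 and C730029A08Rik (0.975 and 0.973), for Fgfr1 Lrrc58 and Ctps2 (0.973 and 0.962), for Fgf2 Rabepk and Pnpla3 (0.968 and 0.965) and for Fgf21 Vps25 and C730026J16 (0.941 and 0.918). The points are 3 tissues of 6 libraries, so differences between tissues enter each r. As a scale for these values, 618 genes reached an r of 0.9 or more with Fgf13 but 19 with Fgf21.

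In the mm9 coordinates of the files, Fgf10 lies at chr13:119458598-119581380 (plus strand), Fgf13 at chrX:56315322-56821248 (minus), Fgf21 at chr7:52869260-52870860 (minus), Fgfr1 at chr8:26624126-26686186 (plus), Fgfr3 at chr5:34064373-34079716 (plus) and Klb at chr5:65739625-65775847 (plus). At least 98.3% of each of the 10 rows lay within the GENCODE gene of the same symbol. Besides Fgf2, the exons of Fgf10 share 123 bases with Gm16263 and those of Fgfr1 share 125 bases with Gm16159.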

How the data were processed

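RNA-seq of 18 libraries was analysed, 6 each of iWAT adipocytes, eWAT adipocytes and BAT, grouped by source name. Per the labels, libraries were made with the NEBNext Ultra kit from total RNA. The submitters' processing notes name cutadapt 1.16, HISAT2 2.1.0 and mm9, while the counting program and annotation are not given in the sources used here. The deposited read counts are whole reads per transcript row without normalization. The deposited RPKM values were computed by the authors from these counts, the transcript length and 1 total per library. No column of another sample was present (0 columns left out).

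Where a symbol had several rows, the most abundant one by mean RPKM was kept. Counts were tested with edgeR 4.0.16 (glmQLFit and glmQLFTest, TMM, two-sided) in R 4.3.3, each comparison on its own 12 libraries and over every gene that averaged 10 reads or more, with Benjamini-Hochberg adjustment and a threshold of 0.05. Fold changes come from these fits and levels are deposited RPKM. The series design gives 6 mice per tissue, and the labels do not say whether a number marks the same mouse in each tissue. Intervals are 95%, and read numbers cover counting error only. Alternatives used DESeq2 1.42.0, limma 3.58.1 on log2(RPKM + 0.1) and log2(RPKM + 1), no TMM, no filter, summed rows, all 18 libraries, lane, a replicate block, a fold threshold and libraries left out. Correlations and ratios used Python 3.11.15 and scipy 1.17.1.

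The members and gene lists were chosen with earlier results of these data known. Named genes are the 10 members, the 3 pathway genes that passed with the largest fold change in any 1 comparison, every gene of a subgroup with at most 4 genes, and the 2 genes most like each member that reached 1 RPKM in a tissue. Other feedback inhibitors and Fgf11, Fgf12 and Fgf18 were named after their values were seen. Promoters came from RefSeq (GRCm38.p6), and no coordinates were converted between builds.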

Additional observations from a re-analysis of the deposited data

How the results depend on the processing

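Of 300 member fold changes under an alternative other than leaving out 1 library, 243 kept direction and side of the threshold, 29 lost the call, 17 gained it and 11 reversed. Reversed in iWAT against BAT were Fgf1 (0.70 without TMM, 0.44 and 0.41 with limma on log2(RPKM + 0.1) and log2(RPKM + 1)), Fgf2 (0.54, 0.25 and 0.14) and Fgf21 (0.32, 0.070 and 0.038), and in eWAT against BAT, without TMM, Fgf1 (0.12) and Klb (0.16). These settings leave out the TMM factors, which lie below 1 in BAT. Members past the threshold in eWAT against BAT were 5 without TMM and 6 with either limma fit, against 10. Over all genes, 17026 of 20076 passed without TMM, and 17712 and 17685 of 21879 with the limma fits. With a threshold of 1 on the log2 fold change, 1, 3 and 4 members and 5, 18 and 19 pathway genes passed. The order is iWAT against eWAT, iWAT against BAT and eWAT against BAT. Over all genes, 2192 of 19623, 5765 of 19745 and 8180 of 20076 passed in that order. In iWAT against eWAT, Fgf10, Klb, Fgfr2 and Fgfr3 exceeded this threshold but were not distinguished from it (edgeR adjusted p 0.055 to 0.48). A cutoff of 0.1 RPKM was reached by 10 members in eWAT and 10 in BAT, against 5 and 4 at 1 RPKM, and 7 in BAT reached 1 RPKM after division by the TMM factor.

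The iWAT and eWAT libraries carry the same numbers. Deviations of same-numbered white libraries had a mean correlation of -0.0043 over 6 pairs, from -0.25 to 0.44. So few and scattered values do not settle whether a number marks 1 mouse. The numbers were not used as pairs in the main fits. With the number as a replicate block, 9, 6 and 10 members and 27, 32 and 31 pathway genes passed. Over all genes, 12836 of 19623, 12555 of 19745 and 15149 of 20076 passed with the block. Fgf1 (0.80, edgeR adjusted p = 0.026) and Fgf21 (0.72, adjusted p = 0.019) in iWAT against eWAT and Fgf9 in iWAT against BAT (0.50, adjusted p = 0.034) gained the call, and Fgf2 in iWAT against BAT lost it (-0.40, adjusted p = 0.066). No other member call changed with the block.

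With 1 library left out, 345 of 360 fold changes kept direction and side, 7 lost the call, 8 gained it and 0 reversed. All 7 losses were Fgf2 in iWAT against BAT, without iWAT library 1, 2, 4 or 5 or BAT library 5, 16 or 18 (adjusted p 0.051 to 0.088). Gains were Fgf1 in iWAT against eWAT without eWAT library 2, 4 or 5, Fgf21 there without iWAT library 5 or eWAT library 2, Fgf21 in iWAT against BAT without iWAT library 2 or BAT library 5, and Fgf9 there without iWAT library 3. Among the members, the fewest reads stood behind Fgf21, with 10 to 61 per library, and Fgf13 in BAT, with 13 to 60.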

Other observations

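Libraries of a group were separate, since the lowest chi-square per degree of freedom between 2 libraries was 17.5 in iWAT, 15.7 in eWAT and 21.7 in BAT. Skeletal muscle markers summed to 1.36 to 84.9 RPKM over the BAT libraries. Schwann cell markers summed to 1.01 to 11.6 RPKM in iWAT and 0.222 to 0.299 in eWAT. Of the members, none had a single library far from the others of its tissue by Dixon's test over 30 groups, where 1.5 would be flagged by chance.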
